A study of Caenorhabditis elegans with 2 samples.

Results

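The genes that encode the proteins of the cytosolic ribosome were taken by name, as the protein-coding genes called rpl- or rps- followed by a number, together with rla-0, rla-1, rla-2 and ubl-1. They numbered 82 of 19973 nuclear protein-coding genes of Caenorhabditis elegans, 50 for the large subunit and 32 for the small subunit. RefSeq names 1 of them, rpl-24.2, differently, as a putative ribosome biogenesis protein related to RLP24, so it may not be part of the finished ribosome. The name rule does not take ubq-2, which encodes ubiquitin fused to a large-subunit protein.

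Occupancy of ZAG-1 was measured by chromatin immunoprecipitation and sequencing of whole L3 larvae, pooled from both sexes, of strain OP83. The animals carry unc-119(ed3) on chromosome III and the insertion wgIs83, which carries zag-1 tagged with eGFP, so every sample holds both alleles. There was 1 group with 2 biological replicates, numbered in the labels, and no other genotype or treatment to compare. Read depth is unknown, because the files used here give regions and scores, and whole animals do not show which cells gave a region.

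Ribosomal protein genes are expressed in nearly all cells, and their products are made together in near equal amounts because each ribosome holds a copy of most of them. Many messenger RNAs of the worm receive a spliced leader at their 5′ end, so an annotated start can be a splice site with transcription beginning upstream of it. ZAG-1 is a zinc finger homeodomain protein of the ZEB family and is known from neurons. No library of another factor was analysed here, so whether any such library would give signal at these highly expressed genes was not tested.

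Each region was given to the gene whose protein-coding transcript start was nearest to the region's summit, within 5000 bp. The optimal set of 357 regions, which the authors selected for agreement between replicates, placed a region at 13 of the 82 genes (15.9%, exact 95% binomial interval 8.72 to 25.6). The share over all nuclear protein-coding genes was 1.52%, or 303 of 19973. Without rpl-24.2, left out after its annotation was seen, the count was 12 of 81 (14.8%). Intervals cover the counting of genes only. Since the genes were proposed with earlier results of these data in view, this count is a description and has no test.

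The 13 genes were, from the highest score down, rpl-3, rpl-35, rpl-15, rps-20, rps-1, rpl-11.2, rpl-24.2, rpl-12, rps-28, rps-17, rpl-7A, rpl-41.2 and rpl-23. The sequences around 6 of their summits are printed as examples, and they do not stand for all 13. They include the highest scores and the lowest score, with rps-1 as the only gene of the small subunit. Each is the 50 bases on either side of the summit in ce11 (WBcel235), read 5′ to 3′ on the strand of the gene. Capitals mark 4 words that are counted further on. They are GACGCA, then GAGAGA, which reads TCTCTC on the other strand, then CGTCTC, which reads GAGACG there, and ACCGTA, which reads TACGGT there.
The windows lie at chrIII:3867532-3867632, forward strand, for rpl-3, chrIII:7854656-7854756, forward strand, for rpl-35 and chrIV:654876-654976, reverse strand, for rpl-15.
rpl-3: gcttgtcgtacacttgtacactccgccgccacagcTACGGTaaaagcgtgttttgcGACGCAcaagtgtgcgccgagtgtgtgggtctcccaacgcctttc
rpl-35: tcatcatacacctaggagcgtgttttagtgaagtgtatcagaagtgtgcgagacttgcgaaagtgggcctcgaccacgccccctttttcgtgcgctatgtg
rpl-15: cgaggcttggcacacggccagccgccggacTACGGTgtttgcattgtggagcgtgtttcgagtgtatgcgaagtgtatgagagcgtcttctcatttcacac
Those of the other genes lie at chrIII:4475608-4475708, forward strand, for rps-1, chrX:2242935-2243035, reverse strand, for rpl-11.2 and chrIII:5706408-5706508, reverse strand, for rpl-23.
rps-1: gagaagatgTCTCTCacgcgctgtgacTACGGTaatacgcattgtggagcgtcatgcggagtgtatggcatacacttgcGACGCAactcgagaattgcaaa
rpl-11.2: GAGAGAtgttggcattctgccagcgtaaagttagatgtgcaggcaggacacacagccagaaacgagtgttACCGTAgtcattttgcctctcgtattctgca
rpl-23: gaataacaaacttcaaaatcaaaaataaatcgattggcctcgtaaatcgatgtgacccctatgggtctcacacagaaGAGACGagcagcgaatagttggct

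In the large subunit, the region of rpl-3 had the highest score among the 13. RPL-3 lies near the peptidyl transferase centre, where peptide bonds form. Its region, at positions 3867479 to 3867680 of chromosome III, scored 182 and ranked 11 of 357, with the summit in intergenic sequence 272 bp upstream of the start. In the separate lists it ranked 13 in replicate 1, with a score of 69.5, and 14 in replicate 2, with a score of 109. Scores are the authors' own and are not scaled between lists, so a score in one list is not set against a score in another, and ranks stand for the agreement of the replicates. Ranks in the optimal set count all 357 regions, of which 339 lie on nuclear chromosomes. The highest score was 393 over all 357 and 212 over the nuclear regions. The next protein-coding start, that of acs-19, lay 3093 bp from the summit.

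The region of rpl-35, which encodes a protein at the exit of the peptide tunnel, scored 123 and ranked 22. Its summit lay 428 bp upstream of the start, at positions 7854636 to 7854759 of chromosome III, and no protein-coding start lay upstream of the gene for 11498 bp. Replicate 1 ranked it 21 (score 57.3) and replicate 2 ranked it 35 (score 63.1). The regions of rpl-3 and rpl-35 were 202 and 124 bp wide, whereas the other 11 were 384 bp wide. Of the 357 optimal regions, 10 were narrower than 384 bp.

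The region of rpl-15, a large-subunit protein that binds ribosomal RNA, scored 94.8 and ranked 38. Its rank was 136 in replicate 1 (score 20.7) and 27 in replicate 2 (score 71.6), so it stood higher in replicate 2. The summit lay 350 bp upstream of rpl-15, at positions 654734 to 655117 of chromosome IV, and 464 bp from the divergent start of K11H12.8. The snoRNA genes K11H12.13 and K11H12.12 start inside rpl-15 on the same strand, 565 and 896 bp from the summit.

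The region of rpl-11.2, whose product joins RPL-5 and a small ribosomal RNA in the large subunit, scored 57.94 and ranked 100. It was the only one of the 13 on the X chromosome, at positions 2242793 to 2243176, 367 bp upstream of the start. Its ranks were 65 in replicate 1 (score 28.8) and 133 in replicate 2 (score 33.5). The paralog rpl-11.1, which encodes the same protein of the ribosome, had no region in the optimal or joint lists and only 1 in replicate 2, at rank 21227. Only 2 of the 82 genes (2.44%) lie on X, which holds 87 of the 339 nuclear optimal regions (25.7%).

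The region of rpl-24.2, the gene with the biogenesis annotation, scored 57.89 and ranked 102, at positions 9669036 to 9669419 of chromosome I. The gene lies on the opposite strand within C03D6.1, so its summit, 187 bp upstream of rpl-24.2, falls in an intron of C03D6.1. It ranked 108 in replicate 1 (score 23.1) and 164 in replicate 2 (score 30.8). Its paralog rpl-24.1, which encodes the ribosomal protein itself, had no optimal region and ranked 740 in the joint list with a score of 24.9.

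The region of rpl-12, a protein at the base of the ribosomal stalk, scored 56.3 and ranked 110. It was the only one of the 13 with a summit inside the transcript, 7 bp past the start, in untranslated exon sequence and 84 bp before the start codon. The region covers positions 13240452 to 13240835 of chromosome IV, and the divergent start of lin-54, which encodes a DNA-binding subunit of the DREAM complex, lay 400 bp from the summit. Ranks were 69 in replicate 1 (score 28.4) and 183 in replicate 2 (score 29.5).

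The other large-subunit regions were those of rpl-7A, rpl-41.2 and rpl-23, and all ranked below the 178 highest regions of the optimal set. The region of rpl-7A scored 36.5 and ranked 267, at positions 4390465 to 4390848 of chromosome IV, 67 bp upstream of its start and 187 bp from the divergent set-21. It ranked 1902 in replicate 1 (score 9.59) and 276 in replicate 2 (score 24.3). The snoRNA genes Y24D9A.9 and Y24D9A.10 lie inside rpl-7A, 349 and 780 bp from the summit.

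The region of rpl-41.2, which encodes the smallest ribosomal protein, scored 34.4 and ranked 319, at positions 4789816 to 4790199 of chromosome I and 284 bp upstream. It ranked 271 in replicate 1 (score 15.3, with a summit 104 bp away) and 348 in replicate 2 (score 22.0). Its close copy rpl-41.1 starts 818 bp from the summit on the same strand and had no region of its own in any list. Whether reads of the copies were shared was not tested. The region of rpl-23, whose product faces the small subunit, scored 33.9 and ranked 332, at positions 5706266 to 5706649 of chromosome III and 331 bp upstream. It was the least even of the 13, at rank 20470 of 30000 in replicate 1 (score 4.53) and rank 162 in replicate 2 (score 30.8).

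In the small subunit, 4 genes had an optimal region. The region of rps-20, a protein of the head of the subunit, scored 69.4 and ranked 73, at positions 14469104 to 14469487 of chromosome I. Its summit lay 193 bp upstream of rps-20 and 204 bp from the divergent start of ekl-4, so the choice between these genes rests on a small difference. The ranks were 66 in replicate 1 (score 28.5) and 63 in replicate 2 (score 48.1). The replicate 1 summit lay 84 bp away and fell nearest to ekl-4, so that list alone placed no region at rps-20.

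The region of rps-1, a protein near the path by which messenger RNA leaves the ribosome, scored 66.0 and ranked 77. It lay at positions 4475466 to 4475849 of chromosome III, 260 bp upstream of rps-1 and 508 bp from the divergent ifet-1. It stood higher in replicate 1, at rank 40 (score 35.7), than in replicate 2, at rank 177 (score 29.9).

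The region of rps-28, which encodes another protein near that exit, scored 52.3 and ranked 130, at positions 1659010 to 1659393 of chromosome IV. At 489 bp upstream it lay farthest from its start among the 13. Its ranks were 110 in replicate 1 (score 23.1) and 202 in replicate 2 (score 28.5). The region of rps-17, a protein of the head, scored 44.5 and ranked 175, at positions 6220777 to 6221160 of chromosome I and 205 bp upstream. Its ranks were 341 in replicate 1 (score 14.6) and 203 in replicate 2 (score 28.4).

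**Figure D1:**
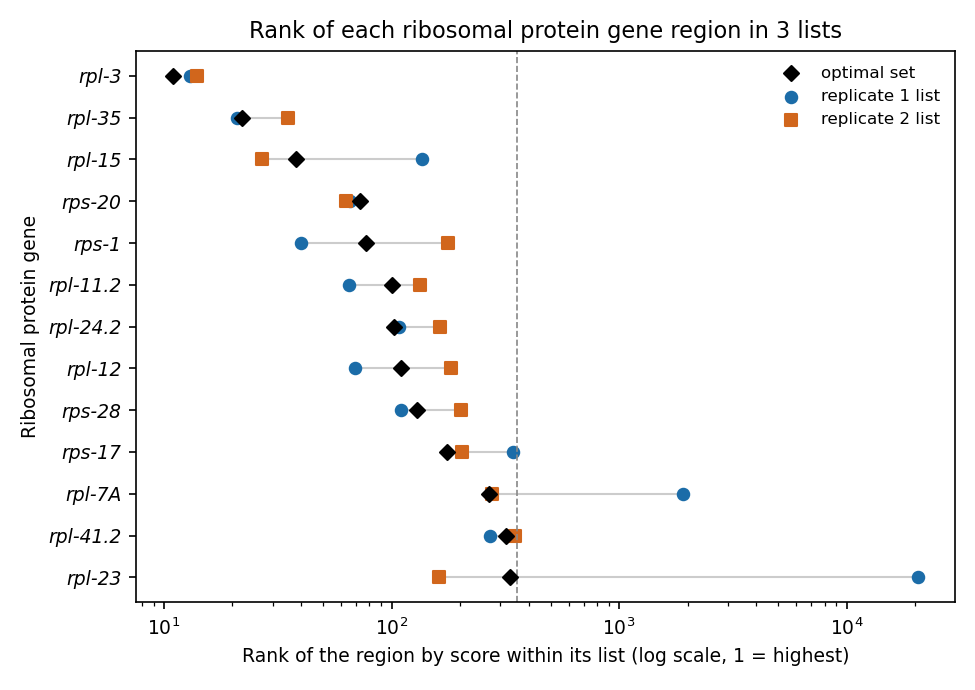
Rank of the region of each of the 13 ribosomal protein genes in the optimal set (diamonds), the replicate 1 list (circles) and the replicate 2 list (squares), on a log axis where 1 is the highest score and the dashed line marks rank 357. The replicate 1 points of rpl-7A (rank 1902) and rpl-23 (rank 20470) lie to the right of the line, and all replicate 2 points lie to its left.

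Genes of both subunits had optimal regions, and the small numbers leave wide intervals on their shares. The share was 9 of 50 (18%, interval 8.58 to 31.4) for the large subunit and 4 of 32 (12.5%, interval 3.51 to 29.0) for the small subunit, and the intervals overlap over most of their length. The large-subunit regions had a median score of 57.9, with values from 33.9 to 182, and the small-subunit regions a median of 59.1, with values from 44.5 to 69.4. Large-subunit regions thus held both the highest and the lowest scores. The difference between the subunits was not tested.

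By score, 10 of the 13 regions (76.9%) were among the 178 highest of the optimal set, against 140 of 304 regions (46.1%) given to other nuclear genes. Of those 178 regions, 163 were nuclear. The median score was 57.9 for the 13 and 42.2 for the 304. A region was found in both replicates, with a summit within 100 bp in each, for 12 of the 13 (92.3%) and for 269 of the 304 (88.5%). The exception was rpl-41.2.

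Each replicate alone also placed its highest regions at ribosomal protein genes. The 357 highest regions of replicate 1 fell at 12 of the 82 genes (14.6%, interval 7.80 to 24.2), where all genes gave 1.48%. The 357 highest of replicate 2 fell at 13 (15.9%), where all genes gave 1.47%, and these were the same 13 genes as in the optimal set. Replicate 1 shared 10 of the 13 and missed rpl-7A, rpl-23 and rps-20. It added ubl-1, which encodes a ubiquitin-like protein fused to a small-subunit protein, and rps-15. The optimal set was selected from these libraries, so the overlap is no independent repeat.

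The joint list, which the authors called on both libraries together and which includes background regions on purpose, shows where the other genes stand. Just below the optimal set came ubl-1 at rank 378 (score 32.2, 208 bp upstream), rps-4 at rank 439 (30.2, 217 bp upstream) and rps-22 at rank 580 (27.0, 95 bp upstream). The genes rps-15 (rank 646, score 26.2), rps-24 (rank 662, score 25.9), rpl-24.1 (rank 740), rps-30 (rank 785, score 24.3) and rpl-27 (rank 801, score 24.1) followed. Of these 8 genes 6 encode small-subunit proteins, counting ubl-1.

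Several of these 8 genes stood far apart between the replicates. The gene ubl-1 ranked 250 in replicate 1 and 523 in replicate 2, whereas rps-22 ranked 463 and 8454. The gene rps-24 ranked 6528 in replicate 1 and 620 in replicate 2. The gene rpl-24.1 had a region only in replicate 1 of the 2 replicate lists, and rpl-27 only in replicate 2. The next 3 genes in the joint list were rps-18 at rank 1359, rps-9 at rank 1530 and rpl-14 at rank 1564.

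Within the first 1000 joint regions, 21 of the 82 genes (25.6%, interval 16.6 to 36.4) had a region, and the share of all genes was 4.14%. These were 11 of 50 large-subunit genes (22%) and 10 of 32 small-subunit genes (31.2%). The first 2000 regions reached 25 genes (30.5%), beside 7.84% of all genes, and the first 5000 reached 35 (42.7%), beside 17.5%. The order of the subunits was thus the opposite of that in the optimal set, and their intervals overlapped at each of these depths. The order also changed higher up, as the first 200 joint regions reached 12% of large-subunit and 12.5% of small-subunit genes.

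**Figure D2:**
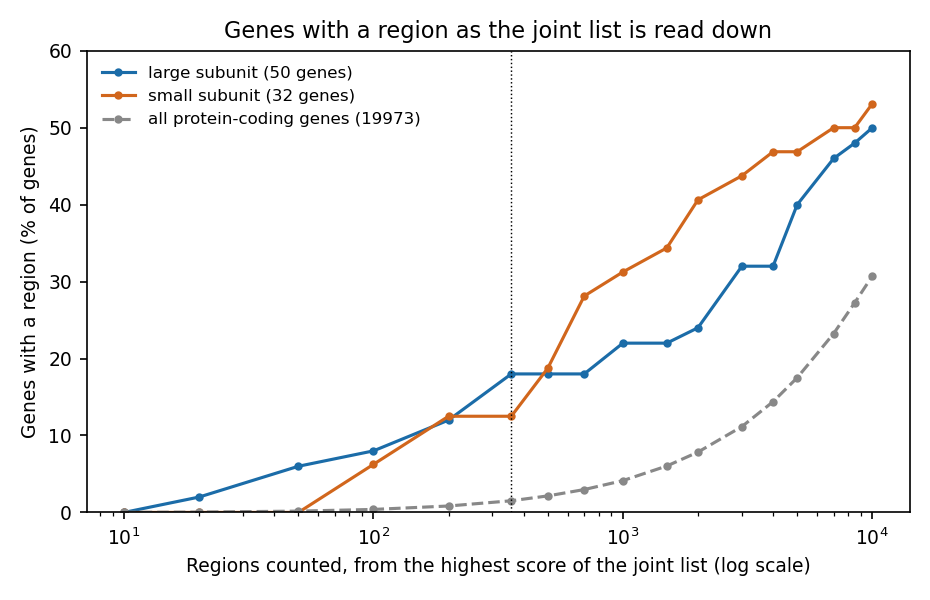
Share of large-subunit genes, small-subunit genes and all protein-coding genes with a region, as the joint list is read from its highest score down (log axis); the dotted line marks the 357 regions of the optimal set. At rank 200 the small-subunit line lies at 12.5% and the large-subunit line at 12%, and at rank 357 they lie at 12.5% and 18%. From rank 500, at 18.8% and 18%, the small-subunit line stays above the large-subunit line. The list ends at 50% for the large subunit, 53.1% for the small subunit and 30.7% for all genes.

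Over the whole joint list 42 of the 82 genes had a region (51.2%, interval 39.9 to 62.4), beside 30.7% of all genes. Replicate 1 had regions at 56 of 82 (68.3%, interval 57.1 to 78.1), beside 63.8%, and replicate 2 at 57 of 82 (69.5%, interval 58.4 to 79.2), beside 59.1%. In these replicate lists, which reach far into background, the share of all genes lay within the interval of the ribosomal protein genes.

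The other 40 genes had no region in the joint list, 25 of the large and 15 of the small subunit. Of these, 27 had a region in at least 1 replicate list, and 13 had none in any list: rla-2, rpl-2, rpl-4, rpl-9, rpl-10, rpl-20, rpl-22, rpl-28, rpl-36.A, rpl-41.1, rps-0, rps-2 and rps-29. The matching shares over all genes were not counted for the 27 and the 13, so neither can be read as few or many. To have none means only that no summit lay nearest to that gene's start. Of the 13, rpl-20, rps-0 and rpl-41.1 started within 1000 bp of an optimal summit that lay nearer to another gene. The same held for rps-12, rps-19 and rpl-43 among the 27. The stalk proteins, which recruit translation factors, had no optimal region. Among them rla-0 ranked 5592 in the joint list, rla-1 had a region only in replicate 2, at rank 6880, and rla-2 had none. Chromosomes II and V, with 10 and 8 of the 82 genes, held none of the 13 optimal regions, and chromosomes I, III and IV held 4 each. Of the 339 nuclear optimal regions, II held 44 and V held 37. With only 13 regions spread over the chromosomes, the absence from II and V says little and was not tested.

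These genes have little sequence around them. The stretch in which a gene's start is the nearest one within 5000 bp had a median of 1486 bp for the 82 genes and 3774 bp for all genes, so the 82 genes held 0.191% of the total. It was 1647 bp for the genes with an optimal region and 1479 bp for the 69 without.

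The optimal regions sat at a narrow distance upstream of the genes. Of the 13 summits 12 lay upstream of the start (92.3%), at a median position of -272 bp (interquartile range -350 to -193). In other genes 237 of 304 summits lay upstream (78.0%), at a median of -233 bp (interquartile range -813 to -31.8). None of the 13 and 104 of the 304 (34.2%) lay more than 1000 bp from the start. The 200 other summits within 1000 bp were upstream in 87.5%, at a median of -203.5 bp.

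A stretch from 150 to 500 bp upstream, chosen after the positions were seen, held 11 of the 13 summits (84.6%) and 85 of the 304 (27.96%). Among the 200 other summits within 1000 bp of the start, it held 42.5%. The stretch was set on these values, so its share has no test. The part of the short sequence around these genes in keeping summits near the start was not tested.

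**Figure D3:**
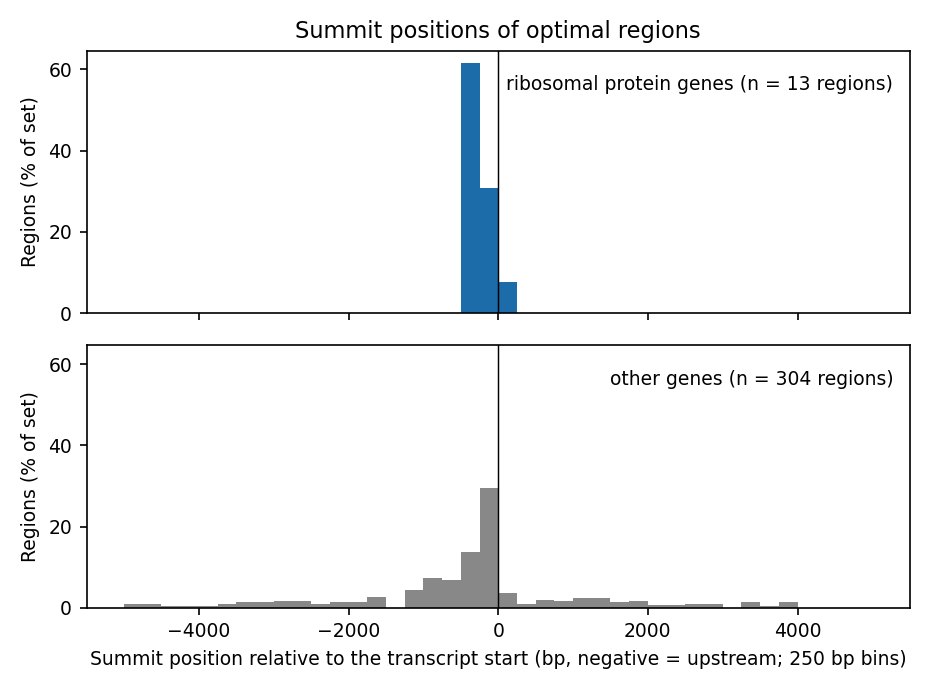
Summit positions of optimal regions relative to the transcript start, in 250 bp bins as a percentage of each set, for the 13 regions of ribosomal protein genes (top) and the 304 regions of other nuclear genes (bottom). All 13 lie within 500 bp of the start and 12 are upstream, while 34.2% of the other regions lie beyond 1000 bp.

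Lower in the joint list, the best regions of the 29 genes with a joint and no optimal region had a median position of -183 bp, and 14 of them (48.3%) lay from 150 to 500 bp upstream. The best joint regions of the 5805 other genes with no optimal region had a median of -69 bp, and 13.7% lay in that stretch. Among best regions within 1000 bp of the start, the stretch held 14 of 26 (53.8%) for the ribosomal protein genes and 26.2% of 3040 for the other genes. Further joint regions of ribosomal protein genes, 16 in all, had a median of +663.5 bp, and none of them lay in that stretch.

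Neighbouring genes share several of these regions. A second start, divergent on the opposite strand, lay within 1000 bp of the summit for 5 of the 13 regions (38.5%) and for 58 of the 304 (19.1%). All 58 were among the 200 other regions with their nearest start within 1000 bp. The remaining 104 could not be counted, and none of the 13 was left out in this way, so 38.5% and 19.1% are not like for like. For rpl-15, rps-1, rps-20, rpl-12 and rpl-7A the region cannot be assigned to one gene of the pair from position alone. On the same strand, a second start lay within 1000 bp of the summits of rpl-41.2 (rpl-41.1, 818 bp), rps-28 (Y41D4B.4, 908 bp) and rpl-23 (swp-1, 933 bp). A tRNA, snRNA, snoRNA or rRNA gene started within 1000 bp of 2 of the 13 summits (15.4%) and of 35 of the 304 (11.5%).

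A further 8 ribosomal protein genes had a start within 1000 bp of an optimal summit that lay nearer to another gene. Counted by any start within 1000 bp, 21 of 82 genes (25.6%, interval 16.6 to 36.4) had an optimal region, and the share of all genes by the same count was 1.45%. The highest was rpl-20, 314 bp from a region that scored 94.7 at rank 39 on chromosome IV and lay 148 bp from Y17G9B.5. The closest case was rps-12, 158 bp from a summit with a score of 57.9 at rank 101, where ska-3 on the opposite strand was nearer by 23 bp.

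The others were rpl-27 beside egl-30 (score 51.3), which encodes a G protein alpha subunit, and rps-18 beside sec-61.A (45.3), which encodes a subunit of the protein translocation channel. They also included rps-19 beside hsr-9 (36.2), rpl-43 beside Y48B6A.1 (35.2), rps-0 beside rbg-3 (34.7) and rpl-41.1 beside rpl-41.2. In 6 of the 8 the summit was upstream of the ribosomal protein gene, and in 6 of the 8 the nearer gene was on the opposite strand.

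Other genes of translation were compared with the same rule. Among genes for mitochondrial ribosomal proteins, which build the separate ribosome of the mitochondrion, 2 of 70 had an optimal region (2.86%, interval 0.348 to 9.94). They were mrpl-20 (score 49.2, 2897 bp upstream) and mrpl-28 (score 35.1, 121 bp upstream). Among translation factors the count was 3 of 47 (6.38%, interval 1.34 to 17.5), with iff-2 (score 66.1), eif-3.C (44.2) and eef-1A.2 (40.3). Cytosolic aminoacyl-tRNA synthetases, which charge tRNAs with amino acids, had 0 of 20 (upper bound of the interval 16.8%).

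Genes of ribosome biogenesis and its control had 1 of 45 (2.22%, interval 0.0562 to 11.8), which was fib-1 (score 39.5), the gene of the nucleolar methyltransferase fibrillarin. The interval of the 82 genes overlapped those of each of these lists, and the differences were not tested. In the joint list, which lies beside 30.7% of all genes, the lists had 34.3%, 36.2%, 25% and 46.7% of their genes with a region, in the order given.

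**Figure D4:**
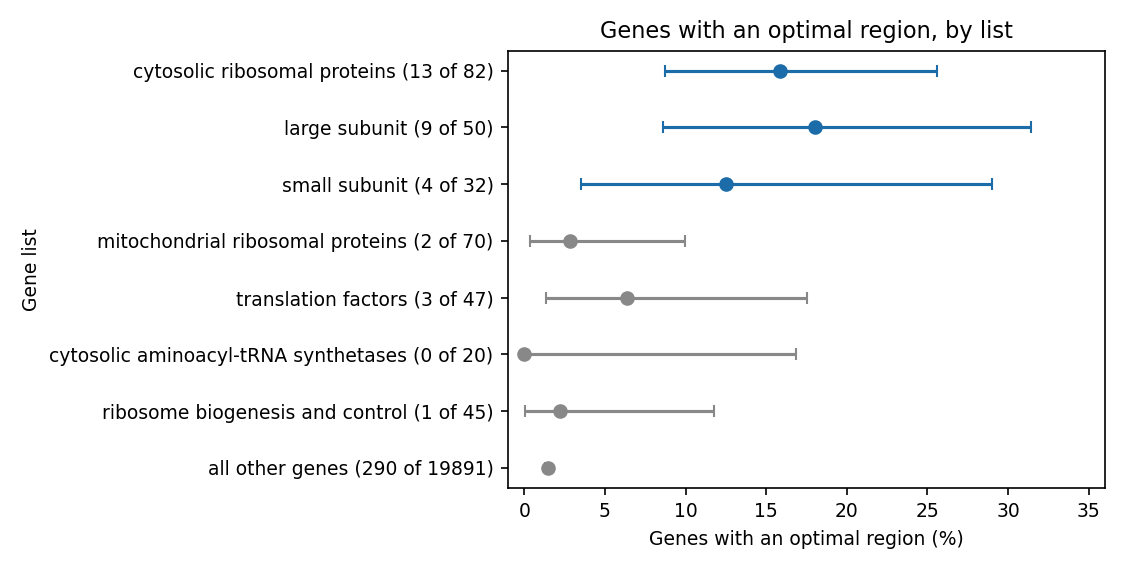
Percentage of genes with an optimal region in the cytosolic ribosomal protein genes and their subunits (blue), in other lists of translation genes and in all other genes (grey), with exact 95% binomial intervals as bars. The cytosolic ribosomal protein genes, at 15.9%, lie highest of the lists apart from their own large subunit, and the remaining 19891 genes lie at 1.46%.

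Words of the summit windows were counted beside those of the 304 other regions. GAGAGA lay within 50 bp of 3 of the 13 summits (23.1%) and of 119 of the 304 (39.1%). GACGCA lay in 5 (38.5%) and 67 (22.0%), and CGTCTC in 2 (15.4%) and 76 (25%). Within 100 bp GACGCA still lay in 5 of the 13 but in 98 of the 304 (32.2%), so its shares lay closer together. CGTCTC still lay in 2 of the 13 but in 117 of the 304 (38.5%), so its shares lay further apart. CACCTG, the word bound by vertebrate ZEB proteins, lay in 0 of 13 and in 6 of 304 (1.97%). Both strands were searched, and with 13 windows no difference was tested.

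Of all hexamers, ACCGTA lay in the most windows of the 13, and it was picked after this was seen. It was in 6 windows (46.2%), those of rpl-3, rpl-15, rps-20, rps-1, rpl-11.2 and rps-17, and in 19 of the 304 other windows (6.25%). All of these but rps-20 and rps-17 are among the printed windows, so the printed windows show ACCGTA more often than the 13 do. The windows of rps-28 and rpl-7A, which hold none of the words marked by capitals, were not printed. Within the 50 bp windows ACCGTA was thus judged on the 13 and not on the printed ones. Within 100 bp it lay in 6 of the 13 and 23 of the 304 (7.57%). In rpl-3, rpl-15 and rps-1 it reads TACGGT on the gene strand and starts 15, 20 and 23 bp before the summit, as the capitals show. In rpl-11.2 it reads ACCGTA and starts 20 bp after the summit. Lengthened by a T in front, the word TACCGTA lay in 5 of the 13 windows (38.5%) and in 11 of the 304 (3.62%).

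The word also lay upstream of genes that were given no region. In the 500 bp upstream of the start it lay in 37 of the 82 genes (45.1%) and in 2786 of 19973 (13.9%). Genes with an optimal region had it in 7 of 13 (53.8%), genes without one in 30 of 69 (43.5%), and genes with no joint region in 19 of 40 (47.5%). The word was picked on the summit windows of the 13, and the 6 windows that hold it lie in the 500 bp searched. The 53.8% thus reuses those windows, as do in part the shares of the 82 and of each subunit. The 69 include 8 genes with a start within 1000 bp of an optimal summit that lay nearer to another gene. For rpl-20, rps-12, rps-19 and rps-0, all among the 40, that summit lay in the 500 bp searched. The same held for rps-18, which is among the 69 and not the 40, with the summit 493 bp upstream. The 69 and the 40 are thus not all promoters without signal. In the shorter window from 250 bp upstream to 50 bp downstream, the shares were lower, 14 of 82 genes (17.1%) beside 8.10% of all genes. In the 500 bp it lay in 50% of large-subunit and 37.5% of small-subunit promoters. Mitochondrial ribosomal protein genes had it in 15.7%, synthetases in 15%, biogenesis genes in 17.8% and translation factors in 23.4%.

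For the words searched first, the shares of the 82 genes depended on the window. In the window from 250 bp upstream to 50 bp downstream of the start, GAGAGA lay in 22.0% of the 82 genes and 21.8% of all genes. GACGCA lay in 8.54% and 8.78%, and CGTCTC in 11.0% and 11.2%. In the 500 bp upstream, GAGAGA lay in 39.0% beside 29.98% of all genes, GACGCA in 15.9% beside 12.9%, and CGTCTC in 26.8% beside 15.7%. CACCTG lay in 2.44% beside 8.48% in the shorter window and in 6.10% beside 12.03% in the longer one. No factor is named from these words, and a match is a description of the letters only.

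Longer sequence was mostly not shared among the windows. Over the 78 pairs of the 13 windows the longest shared run had a median of 7 bases, and 10 pairs shared 10 or more. Shared runs were not counted among the windows at other genes, so these values have no background. The longest run, 17 bases shared by rps-20 and rpl-7A, occurs at 6 places in the nuclear genome, and a run of 12 bases shared by rpl-11.2 and rps-17 at 32 places. The windows of rpl-15 and rps-1, printed above, share 14 bases that start 10 and 12 bp before their summits and occur at 2 places in the nuclear genome.
shared run of rpl-15 and rps-1: gcattgtggagcgt
In both windows TACGGT lies just before this run, on the strand of the gene. The GC content of the windows was 49.1% ± 6.95 (SD, n = 13 windows) and 48.3% ± 8.32 (SD, n = 304 windows) at other genes, a difference smaller than the spread between windows.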

How the data were processed

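Regions of ZAG-1 signal were read from lists in the ce11 build, which is the WBcel235 assembly. Per the labels' notes, the authors made 1 list per replicate and 1 joint list against a control, with background regions kept, and selected the optimal set by irreproducible discovery rate. The sources used here do not name the aligner, the caller or the threshold. The values are the authors' deposited score for each region, used only to rank regions within a list. Lists in ce10 and the control reads were not used here.

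Gene models were Ensembl release 115, and sequences came from the NCBI genome of the same assembly. Starts were protein-coding transcript starts. Shares have exact Clopper-Pearson intervals, with no test. Depth is unknown. The assignment of summits to starts and the word search were tested on simulated summits and sequences with planted answers. Software was Python 3.11.15, SciPy 1.17.1 for intervals, NumPy 2.4.6 and matplotlib 3.10.9 for plots. Of the names written in the lists of other translation genes, 4 of 51 translation factors, 1 of 21 synthetases and 9 of 54 biogenesis genes matched no gene.

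The genes, lists and tests were chosen with earlier results of these data known. Named genes are every ribosomal protein gene with an optimal region or a joint rank up to 1000, the 3 below, bound genes of the other lists, neighbours that share a region, and paralogs. The stalk genes and the genes with no region were named after their values were seen.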

Additional observations from a re-analysis of the deposited data

How the results depend on the processing

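No paired analysis was possible because only 1 group was sampled. Alternatives covered 1 replicate alone, the 178 regions of highest score, the distance limit, the gene types given a region, the start codon, the match between replicates and the word window. Restriction to regions found in both replicates, the removal of rpl-24.2, and the wider window for words other than GAGAGA and CACCTG were chosen after seeing the data. Of the recomputed values, 35 stayed within 1.5 times the reported count or within the spread of the replicates, and 4 did not. That spread is the SD of only 2 medians, 33.9 bp. The 35 include values that could not move far, so their number does not measure stability. All 13 summits lie within 500 bp of the start, so a limit of 1000 bp left the 13 genes unchanged. Over all genes, those with an optimal region fell from 303 to 209 under that limit. The outcome without rpl-24.2 was known beforehand, and looser matches between replicates could not lower a count. Counting every start within 1000 bp gave 21 genes in place of 13 and 8 small-subunit genes in place of 4, because 1 region can then count for several genes. The median position ran from -332 to -284 bp with 1 replicate left out, beside -272 bp. Within 100 bp of the summit GAGAGA lay in 5 of the 13 windows (38.5%) in place of 3, and in 164 of the 304 other windows (53.9%) in place of 119, since the window is longer. Under the other settings the count of genes ran from 10 to 13. It was 10 among the 178 regions of highest score, which lay at 147 genes in all. With nearest starts of any gene type it was 11, of 328 genes of all types, as rpl-11.2 and rps-1 lost theirs. The ce10 lists were not run as an alternative, since gene models of that build were not used here. Read depth, which would limit the precision of a score, is unknown.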
